A study of Mus musculus with 14 samples.

Results

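The genes described are 10 feedback genes of ERK signalling, out of 23427 genes in the expression table: the phosphatase genes Dusp4, Dusp5 and Dusp6, the Sprouty and Spred genes Spry1, Spry2, Spry4 and Spred1, and the transcription factor genes Etv1, Etv4 and Etv5. All 10 were in the table, and the rule that chose them is a list of symbols. In cultured mouse oligodendrocyte precursor cells, 9 of them were highest before differentiation (Day0), an arrangement that 25.8% of all tested genes had. Of these 9, 8 fell at least 3.60-fold in mean FPKM by Day3 and Spred1 by 2.14-fold. All 9 were called lower from Day0 to the Day3 controls, where 14.4% of all tested genes were. The 9 include Dusp4, which was tested there only because of its Day0 level, so its call carries no weight of its own. Dusp5 was called higher with knockdown of Pdgfra and not from Day0 to Day3 or with knockdown of Sbp2l. With knockdown of Sbp2l, Spry1 and Etv1 were called higher, where 3.12% of all genes were. The Etv1 call depended on the control and on the scaling. Both genes also lay above all 8 control libraries with knockdown of Pdgfra, short of 2-fold. Neither knockdown brought both libraries of Dusp6, Spry4 or Etv5 above the range of the controls.

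Extracellular signal-regulated kinase (ERK) is the last kinase of the cascade that receptor tyrosine kinases such as Pdgfra drive through Ras, Raf and Mek. In oligodendrocyte precursor cells (OPCs), PDGF-AA acts on Pdgfra and holds the cells in division, and removal of the ligand together with thyroid hormone (T3) lets them mature into oligodendrocytes (OLs), the myelin-forming cells. ERK switches on genes whose products restrain it. Dusp4 and Dusp5 are nuclear phosphatases, and Dusp6 a cytoplasmic one, that remove the activating phosphates from ERK. The Sprouty proteins (Spry1, Spry2 and Spry4) and Spred1, which recruits the Ras-inactivating protein neurofibromin, act higher up, between the receptor and Raf. Etv1, Etv4 and Etv5 are ETS transcription factors of the Pea3 family, which are induced through ERK. These transcripts are therefore commonly read as a record of recent ERK activity. ERK phosphorylation itself was not measured in the tables analysed here.

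All cells were wild-type OPCs, taken from the pooled cortices of P7 C57BL/6J pups by immunopanning on an antibody against Pdgfra, so every library came from cells first selected for that receptor. The 14 RNA-seq libraries formed 7 groups of 2. Day0 was the OPC state, before induction. The other 6 groups were at Day3 of differentiation, which the study's methods describe as withdrawal of PDGF-AA and addition of T3. They were non-treated cells, cells given transfection reagent alone (mock), cells given either of a pair of negative control siRNAs (NC siRNA #1 and NC siRNA #2), cells given siRNA against Sbp2l (siSbp2l; gene symbol Secisbp2l, an RNA-binding protein), and cells given siRNA against Pdgfra (siPdgfra). The non-treated, mock and both NC siRNA groups are called the controls below. The siRNAs were transfected into seeded OPCs. When induction began relative to transfection, and which siRNA against Pdgfra was used, are not given in the sources used here. The labels name a medium with fetal bovine serum, whereas the study's methods describe a serum-free one with PDGF-AA and CNTF, and which of them these libraries had cannot be told.

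Values were FPKM, fragments scaled to transcript length and to library size, so levels can be compared between genes. Depth recovered from the steps between low values was 6560831 fragments in replicate 2 of NC siRNA #2 and 18481353 to 31621343 in the other 13 libraries. The non-treated pair stood apart: 252 genes differed more than 2-fold between its libraries, against 7 to 21 in the other pairs. Pdgfra was at 3.30 and 2.69 FPKM in siPdgfra, 32.4 to 72.1 in the 8 control libraries, 150 and 144 in siSbp2l and 409 and 436 at Day0. Secisbp2l was at 3.91 and 3.82 FPKM in siSbp2l against 135 to 255 in the controls, so both targeted transcripts were low where their labels say. The summed FPKM of 6 oligodendrocyte markers was 398 and 442 at Day0, 4777 to 8851 in the controls, 1673 and 1871 in siSbp2l and 4228 and 4898 in siPdgfra, and that of 6 OPC markers was 2041 to 2341, 750 to 1138, 1052 to 1072 and 911 to 1024. The OPC sum includes Pdgfra itself and joins genes that differed. The siPdgfra mean was below all control group means for Pdgfra, Cspg4 (0.494 against 1.13 to 2.77 FPKM) and Sox10. It was above them for Olig1 (501 against 286 to 410) and Olig2, and inside their range for Ptprz1. Astrocyte markers (3 of 5 at 1 FPKM or more at Day3) summed to 24.5 to 26.3 FPKM at Day0, 61.7 to 116 in the controls, 66.3 to 67.2 in siSbp2l and 31.1 to 31.5 in siPdgfra. Neuron markers summed to 27.4 to 29.3, 47.8 to 276, 199 to 201 and 236 to 240 FPKM. Most of that sum was 1 gene, Tubb3, with group means of 23.7 at Day0, 66.1 to 270 in the controls, 194 in siSbp2l and 233 in siPdgfra. Of the 5 neuron markers, 3 reached 1 FPKM at Day0 and in siSbp2l, 2 in siPdgfra and 1 to 2 in the control groups. No marker of microglia, endothelium or pericytes and fibroblasts reached 1 FPKM. In such bulk samples, fewer cells of a type and less RNA per cell cannot be told apart, and the part of these cell mixtures in the results that follow was not tested.

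**Figure D1:**
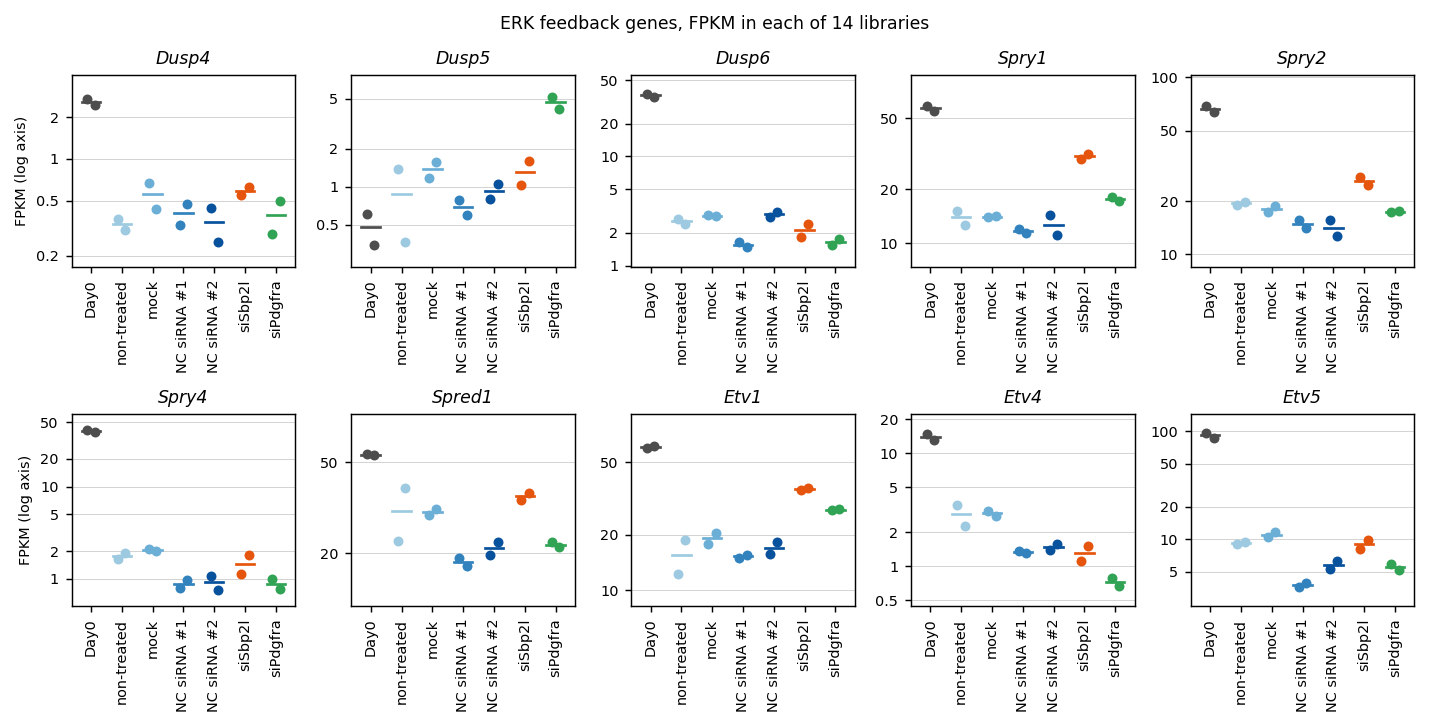
Each panel gives 1 of the 10 ERK feedback genes, with FPKM on a log axis, 1 point per library and a line at the mean of the 2 libraries of each group. In 9 panels both Day0 libraries lie above all 12 Day3 libraries, and in the Dusp5 panel both siPdgfra libraries (5.22 and 4.16 FPKM) lie above the other 12.

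The first comparison asked how the feedback genes changed when OPCs left PDGF-AA and matured. Of the 10 genes, 9 were higher in both Day0 libraries than in any of the 12 Day3 libraries, an arrangement that 25.8% of all tested genes had. A gene was called when its fold change on the log2(FPKM + 1) scale was at least 2-fold with a limma p below 0.05 after Benjamini-Hochberg adjustment over every tested gene. Relative to Day0, 9 of the 10 members were called lower in the mean of the controls, where 14.4% of the 11874 genes tested were. Against non-treated cells alone, 8 were called lower, where 15.2% of all genes were, and Spred1 at a log2 fold change of -0.84 missed the 2-fold limit, which it passed without non-treated replicate 2 (-1.21). The median log2 fold change of the members against non-treated cells was -1.94, beside -0.12 for all genes. Dusp4 entered this fit only because of its Day0 level, so its call there carries no weight of its own.

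Dusp6 (chr10:99263231-99267489, plus strand), the cytoplasmic ERK phosphatase, was at 37.6 and 35.2 FPKM at Day0. In the controls it was at 2.69 and 2.38 in non-treated, 2.89 and 2.85 in mock, 1.65 and 1.46 in NC siRNA #1 and 2.80 and 3.11 in NC siRNA #2. The Day0 and control libraries were far apart, and the Day0 mean was 14.7 times the controls' mean. The fall was -3.45 ± 0.09 (log2 fold change ± SE, adjusted p = 3.24e-11). Dusp4 (chr8:34807610-34819894, plus strand), a nuclear phosphatase, was at 2.70 and 2.44 FPKM at Day0 and at 0.251 to 0.674 in the controls, which rests on 4 to 34 recovered fragments per control library. Its Day0 mean was 6.23 times the controls' mean.

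Spry4 (chr18:38586265-38601268, minus strand) had the largest fall of the 10 genes. It was at 41.1 and 39.2 FPKM at Day0, 1.63 and 1.89 in non-treated, 2.10 and 2.03 in mock, 0.807 and 0.972 in NC siRNA #1 and 1.08 and 0.764 in NC siRNA #2. The Day0 mean was 28.5 times the controls' mean and the log2 fold change was -4.13 ± 0.11 (adjusted p = 5.20e-11). The other Sproutys started higher and remained at a higher level. Spry1 (chr3:37639950-37644599, plus strand) was at 58.4 and 55.0 FPKM at Day0 and at 11.1 to 15.2 in the controls, a log2 fold change of -2.04 ± 0.10 (adjusted p = 4.99e-09). Spry2 (chr14:105891947-105896819, minus strand) was at 69.1 and 63.8 FPKM at Day0 and at 12.8 to 19.9 in the controls, a log2 fold change of -1.95 ± 0.09 (adjusted p = 2.26e-09). Spred1 (chr2:117121450-117179336, plus strand) was the least reduced of the 9, at 54.1 and 53.5 FPKM at Day0 and 17.7 to 38.5 in the controls. Its controls were scattered, with 22.7 and 38.5 FPKM in the non-treated pair alone, and its fall of -1.12 ± 0.14 (adjusted p = 2.85e-05) was -0.81 against mock and -0.84 against non-treated cells.

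Among the ETS factors, Etv5 (chr16:22381313-22439570, minus strand) was the most abundant of the 10 genes at Day0, with 97.1 and 86.5 FPKM. In the controls it was at 9.11 and 9.36 in non-treated, 10.4 and 11.7 in mock, 3.60 and 3.95 in NC siRNA #1 and 5.28 and 6.22 in NC siRNA #2, so the NC siRNA libraries lay below the other controls without overlap. Its log2 fold change was -3.55 ± 0.10 (adjusted p = 5.20e-11). Etv4 (chr11:101769742-101785310, minus strand) was at 14.9 and 13.0 FPKM at Day0 and at 3.50 and 2.27 in non-treated, 3.09 and 2.80 in mock, 1.37 and 1.30 in NC siRNA #1 and 1.39 and 1.57 in NC siRNA #2, a log2 fold change of -2.29 ± 0.12 (adjusted p = 1.14e-08). Etv1 (chr12:38780258-38868215, plus strand) kept the most transcript of the family. It was at 59.7 and 61.0 FPKM at Day0 and at 12.3 and 18.7 in non-treated, 17.9 and 20.6 in mock, 15.0 and 15.6 in NC siRNA #1 and 15.7 and 18.4 in NC siRNA #2, a log2 fold change of -1.80 ± 0.12 (adjusted p = 1.28e-07).

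Dusp5 (chr19:53529318-53541322, plus strand), the other nuclear phosphatase, was the exception. It was at 0.602 and 0.346 FPKM at Day0, 1.38 and 0.365 in non-treated, 1.17 and 1.58 in mock, 0.791 and 0.591 in NC siRNA #1 and 0.796 and 1.06 in NC siRNA #2. Day0 and the controls overlapped, and the log2 fold change of 0.39 ± 0.18 missed the threshold (adjusted p = 0.0730). The values are low, with 9 to 22 recovered fragments per Day0 library and 8 to 38 per control library. As the member whose profile across the groups departed from the rest, Dusp5 is shown with the 250 bases before its RefSeq transcription start, beside the same stretch of Dusp6, its cytoplasmic relative, and of Spry1. Capitals mark CArG boxes, the serum response factor motif, and the coordinates are GRCm38, the same assembly as mm10.
Dusp5 (chr19:53528895-53529144, plus strand): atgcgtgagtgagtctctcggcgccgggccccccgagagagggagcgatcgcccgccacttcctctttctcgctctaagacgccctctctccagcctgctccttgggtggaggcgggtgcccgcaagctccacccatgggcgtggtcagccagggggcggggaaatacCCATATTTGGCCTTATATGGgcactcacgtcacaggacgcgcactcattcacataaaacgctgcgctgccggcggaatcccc
Dusp6 (chr10:99262981-99263230, plus strand): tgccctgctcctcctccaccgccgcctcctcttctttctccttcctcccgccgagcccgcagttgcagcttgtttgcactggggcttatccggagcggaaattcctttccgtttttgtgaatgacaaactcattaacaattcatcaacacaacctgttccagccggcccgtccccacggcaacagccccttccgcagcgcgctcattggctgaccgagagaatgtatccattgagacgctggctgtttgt
Spry1 (chr3:37639697-37639946, plus strand): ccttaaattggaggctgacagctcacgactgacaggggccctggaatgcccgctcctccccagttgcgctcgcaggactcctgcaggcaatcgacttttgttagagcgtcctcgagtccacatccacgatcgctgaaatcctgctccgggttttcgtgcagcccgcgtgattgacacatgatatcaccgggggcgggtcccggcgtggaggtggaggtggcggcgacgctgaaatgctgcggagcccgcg

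The Dusp5 window holds 2 CArG boxes that abut, starting 82 and 72 bases before the start, and the other windows printed hold none. RefSeq promoter windows were matched for 7 of the 10 members (9 windows in all, for Dusp5, Dusp6, Spry1, Spry2, Spred1, Etv1 and Etv5), and only the Dusp5 window had a CArG box, which 1.467% of 32851 mouse windows of this length have. Searched on both strands, no member window held the AP-1 motif TGANTCA (6.749% of all windows) or the ETS motif CCGGAAG (6.907%). The shorter Pea3 motif AGGAAG, which shares GGAAG with the ETS motif, was in 1 window each of Dusp5, Dusp6 and Etv1 (29.48% of all windows), and the Sp1 motif GGGCGG in those of Dusp5, Spry1, Spred1 and 1 of Etv5 (32.74%). The start of Dusp5 in the authors' gene table lies downstream of the RefSeq start used for this window. A match describes letters only.

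**Figure D2:**
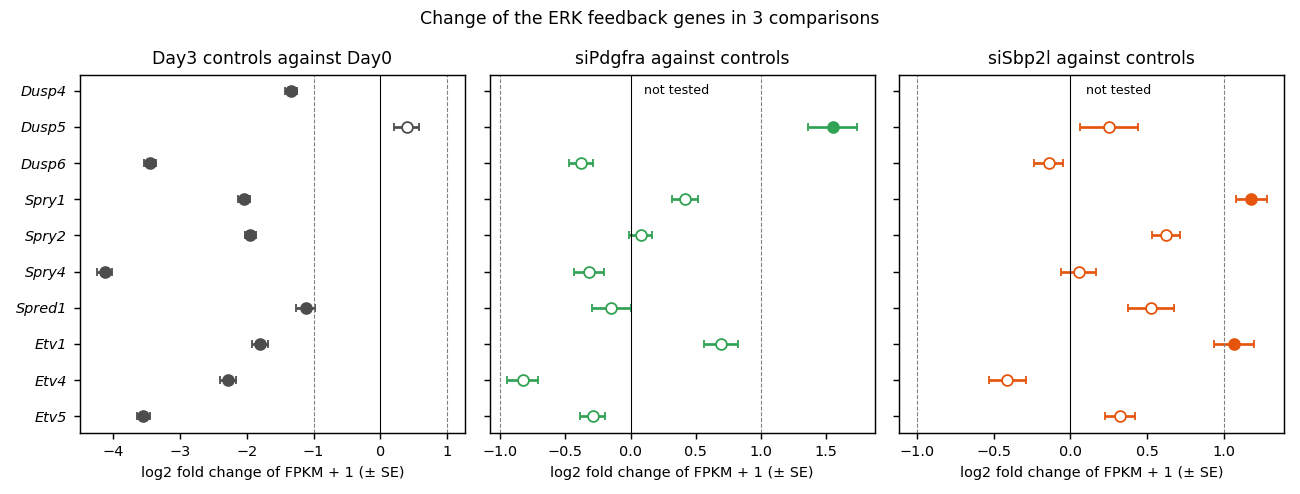
Log2 fold change of FPKM + 1 (± SE) of each ERK feedback gene in 3 comparisons, on axes of different range, with filled points for called genes and dashed lines at 2-fold. From Day0 to the Day3 controls 9 points lie beyond -1, whereas siPdgfra has 1 filled point (Dusp5, 1.55) and siSbp2l has 2 (Spry1, 1.18, and Etv1, 1.06).

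The controls were compared among themselves before the knockdowns were read against them. By limma, none of the 9 members tested was called between the NC siRNA groups and the non-treated and mock groups, where 1.28% of all genes were. At an unadjusted p below 0.05, for which no share of all genes is given here, 6 of the 9 were lower. After adjustment, 5 members passed 0.05, all lower, where 28.1% of all genes passed in either direction. Etv5 was the largest of these, at -0.97 ± 0.09 (adjusted p = 5.80e-05), and it passed 2-fold without mock replicate 1 (-1.01), without NC siRNA #2 replicate 2 (-1.02) and without the non-treated group (-1.08). Etv4 was at -0.69, Spry4 at -0.61, Spred1 at -0.58 and Spry2 at -0.35, all towards lower levels with an NC siRNA and all under the 2-fold limit. Between NC siRNA #1 and NC siRNA #2 no member was called by limma, where 3.99% of all genes were, and 2 were below 0.05 both unadjusted and adjusted, where 21.0% of genes were after adjustment. These were Dusp6 at -0.63 ± 0.12 (adjusted p = 3.69e-03) and Etv5 at -0.50 ± 0.12 (adjusted p = 0.0176), both lower with NC siRNA #1. The choice of control therefore moved several members by amounts similar to the knockdown differences described next.

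The second comparison asked what siRNA against the receptor did to the feedback genes at Day3. Of 9 members tested, only Dusp5 was called, and it rose, where 3.97% of all genes were called higher. No member was called lower, where 4.03% of all genes were. By adjusted p alone, 7 of the 9 passed 0.05 (3 higher and 4 lower, the same counts as unadjusted), where 55.4% of all genes did, so the members stand close to the background on that measure. Their median log2 fold change was -0.15, beside 0.09 for all genes. Dusp4, at 0.289 and 0.495 FPKM, was below the filter in every Day3 group and was not tested.

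Dusp5 stood at 5.22 and 4.16 FPKM in siPdgfra, where the highest of the other 12 libraries was 1.60. The rise was 1.55 ± 0.19 on the log2 scale (adjusted p = 8.78e-05) and 4.85 times as a ratio of mean FPKM, and it rested on 96 to 129 recovered fragments per library. It was called against each of the 4 control groups taken alone, with log2 fold changes from 1.26 (mock) to 1.75 (NC siRNA #1). With 5 in place of 1 added to FPKM, the log2 fold change was 0.70 and no longer a call.

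Etv1 and Spry1 were the other members whose siPdgfra libraries lay above all 8 control libraries, which 26.5% of all genes did. Etv1 was at 27.4 and 27.6 FPKM, a log2 fold change of 0.70 ± 0.13 (adjusted p = 1.39e-03), between 0.50 and 0.82 against single controls. Spry1 was at 18.2 and 17.2 FPKM, a log2 fold change of 0.42 ± 0.10 (adjusted p = 6.16e-03). Against single controls it was between 0.31 and 0.57. It missed an adjusted p of 0.05 by limma against non-treated (0.33, adjusted p = 0.054) and mock (0.31, adjusted p = 0.074). Neither Etv1 nor Spry1 reached 2-fold.

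Etv4 was the only member whose siPdgfra libraries, at 0.780 and 0.664 FPKM, lay below all 8 controls, which 17.5% of genes did. Its log2 fold change of -0.83 ± 0.12 (adjusted p = 2.91e-04) was short of 2-fold against the controls' mean and was a call against non-treated (-1.16) and mock (-1.20) but not against NC siRNA #1 (-0.44) or NC siRNA #2 (-0.52). Dusp6 was at 1.54 and 1.74 FPKM, a log2 fold change of -0.38 ± 0.09 (adjusted p = 6.05e-03) that came to 0.04 against NC siRNA #1. Spry4 at 0.987 and 0.785 FPKM had a log2 fold change of -0.32 ± 0.11 (adjusted p = 0.0368), which was -0.03 against NC siRNA #2 and nearer 0 against NC siRNA #1. Etv5 at 5.83 and 5.14 FPKM had one of -0.29 ± 0.10 (adjusted p = 0.0289), which turned to 0.44 against NC siRNA #1. For these last 3 genes the siPdgfra libraries overlapped the control range. Spry2 at 17.4 and 17.5 FPKM and Spred1 at 22.4 and 21.3 FPKM also lay inside it, with log2 fold changes of 0.08 ± 0.09 (adjusted p = 0.485) and -0.15 ± 0.15 (adjusted p = 0.430).

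**Figure D3:**
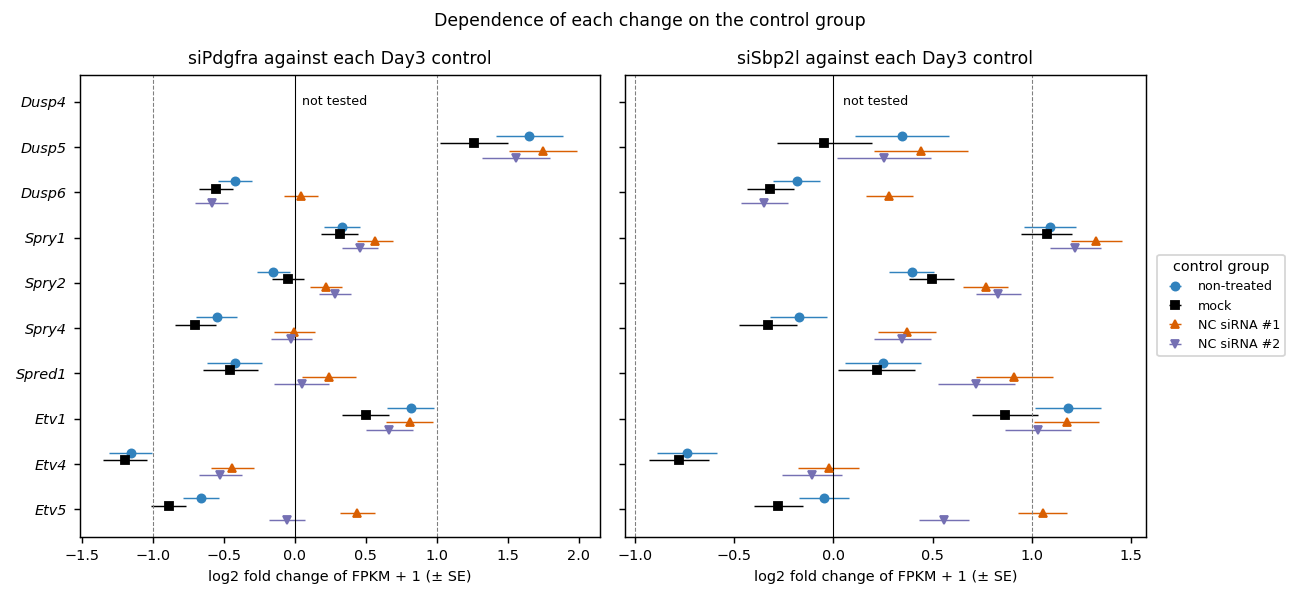
Log2 fold change of FPKM + 1 (± SE) of each member in siPdgfra (left) and siSbp2l (right) against each control group alone, with 1 symbol per control and dashed lines at 2-fold. Dusp5 on the left and Spry1 on the right lie beyond 1 for all 4 controls, whereas Etv5 runs from -0.89 to 0.44 on the left and from -0.28 to 1.05 on the right.

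The third comparison asked the same of siRNA against Sbp2l, and it shares all of its control libraries with the previous one. Of the 9 members tested, Spry1 and Etv1 were called higher, where 3.12% of all genes were, and none was called lower, where 4.08% were. By limma, 1 member (Etv4) was lower at an unadjusted p below 0.05. By adjusted p alone 6 members passed (5 higher and 1 lower), where 53.4% of genes did. The members' median log2 fold change was 0.32, beside 0.15 for all genes. Oligodendrocyte markers were low in these libraries and Pdgfra was 2.83 times the controls' mean, as given above.

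Spry1 stood at 29.7 and 31.7 FPKM, where the highest control library was 15.2. Its rise was 1.18 ± 0.10 (adjusted p = 9.77e-06), a 2.35-fold ratio of mean FPKM, and it was called against every control alone (1.07 to 1.33). With 5 in place of 1 added to FPKM it was 0.99, just under the limit. The level was 54.1% of that at Day0, where the controls' mean was 23.1%. Etv1 stood at 35.3 and 36.2 FPKM, where the highest control library was 20.6, with a rise of 1.06 ± 0.13 (adjusted p = 9.97e-05). That is near the 2-fold limit. Etv1 was no call against mock alone (0.86), without replicate 1 of the non-treated group (0.99) or after median-ratio (0.90) or upper-quartile (0.94) scaling of the libraries. Spry2 at 27.3 and 24.5 FPKM was the third member above all 8 controls, which 30.8% of genes were, with a log2 fold change of 0.62 ± 0.09 (adjusted p = 2.65e-04). Spred1 at 34.2 and 36.6 FPKM had one of 0.53 ± 0.15 (adjusted p = 0.0152) and lay inside the control range, whose upper end was the non-treated replicate at 38.5.

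Among the 3 genes that had fallen most from Day0, Dusp6, Spry4 and Etv5, none lay above the control range. Dusp6 was at 1.83 and 2.41 FPKM (-0.14 ± 0.09, adjusted p = 0.222) and Spry4 at 1.13 and 1.80 FPKM (0.05 ± 0.11, adjusted p = 0.714). They stood at 5.83% and 3.65% of their Day0 means, against 6.82% and 3.51% for the controls. Etv5 at 8.08 and 9.82 FPKM had a log2 fold change of 0.32 ± 0.10 (adjusted p = 0.0191) whose sign depended on the control, from -0.28 against mock to 1.05 against NC siRNA #1. Etv4 at 1.10 and 1.52 FPKM was at -0.41 ± 0.12 (adjusted p = 0.0161), which came to -0.02 against NC siRNA #1 and -0.11 against NC siRNA #2. No member's siSbp2l libraries lay below all 8 controls, where those of 13.5% of genes did. Dusp5 at 1.03 and 1.60 FPKM was at 0.25 ± 0.19 (adjusted p = 0.286), and Dusp4 at 0.549 and 0.627 FPKM was not tested.

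Set directly against each other, the knockdowns differed in Dusp5, which was 1.30 ± 0.24 higher on the log2 scale in siPdgfra (adjusted p = 1.20e-03), the only member called where 13.7% of all genes were. Another 5 members were lower in siPdgfra than in siSbp2l by adjusted p, all under 2-fold, and in total 6 of 9 passed where 52.0% of all genes did. They were Spry1 (-0.76 ± 0.13), Spred1 (-0.67 ± 0.19), Etv5 (-0.61 ± 0.12), Spry2 (-0.55 ± 0.11) and Etv4 (-0.42 ± 0.15). For Dusp6 (-0.24 ± 0.12), Etv1 (-0.37 ± 0.17) and Spry4 (-0.37 ± 0.14) the difference missed the threshold, with adjusted p of 0.115, 0.0886 and 0.0526. Pdgfra itself was 49.1 times higher in siSbp2l than in siPdgfra.

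The composition of the set shifted with maturation. At Day0 the 10 genes summed to 423 FPKM, of which Etv5 made up 21.7%, and Spry1, Spry2, Spred1 and Etv1 together 56.2%. In the controls the sum was 68.7 to 102 FPKM and these 4 genes made up 79.7% to 87.4%, with Spred1 the most abundant member. In siSbp2l the sum was 144 FPKM and in siPdgfra 98.3 FPKM, the same 4 genes made up 89.0% and 86.0%, and Etv1 had the highest mean. In siSbp2l that lead was not seen in both libraries, since Spred1 (36.6 FPKM) was above Etv1 (36.2 FPKM) in replicate 2. Across the 7 group means, the profiles of Spry1 and Etv1 were the closest pair of members, with a root mean square difference of 0.17 on the centred log2 scale, followed by Spry1 and Spry2 at 0.22. Spry4 and Etv5 differed by 0.30. Of 8611 genes compared by the same measure, Nab2, a co-repressor of Egr factors, was the closest to Dusp6 (0.20), ahead of Cks1b (0.22) and Arhgap19 (0.24), and the second closest to Spry4 (0.21). Ncapd2, a condensin subunit, was the closest to Spry4 (0.14), with C330027C09Rik the third (0.25). Tacc3, a mitotic spindle protein, was the closest to Etv5 (0.26), and Gins1 was at 0.27. With 7 points that share libraries, these are descriptions of likeness.

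Other genes of the pathway are given by counts over whole lists, with the genes of largest change named. Of 15 other known ERK output genes tested, 7 fell from Day0 to the controls, where 14.4% of all genes did, and 2 rose (Gadd45b and Epha4). Counted either way, 26.4% of all genes were called there. Egr1, an immediate early transcription factor, was at 189 ± 20.6 FPKM (SD, n = 2) at Day0 and had control group means of 3.58 to 4.98, a log2 fold change of -5.16 ± 0.14 (adjusted p = 6.65e-11). Ccnd1, the cyclin that drives G1 progression, went from 316 ± 17.6 FPKM (SD, n = 2) to group means of 5.49 to 19.4, a log2 fold change of -4.72 ± 0.07 (adjusted p = 2.38e-12). Plk2, a polo-like kinase gene, had one of -3.51 ± 0.07. Vgf, another of the 7, was at a mean of 7.50 FPKM at Day0 and had control group means of 0.326 to 0.941. Like Dusp4, it entered this fit only because of its Day0 level, so its call carries no weight of its own. The median of the 15, Vgf included, was -0.84. In siPdgfra none of 14 was called in either direction, where 3.97% of all genes were called higher and 4.03% lower. By adjusted p, 5 of the 14 were higher and 3 lower, where 55.4% of all genes passed. In siSbp2l Myc was called higher (1.18 ± 0.13) and Arc lower (-1.11 ± 0.15), where 3.12% and 4.08% of all genes were. The size of the Myc difference depended on the control. Its mean was 41.4 FPKM in siSbp2l, 20.5 in non-treated, 24.4 in mock, 9.74 in NC siRNA #1 and 20.3 in NC siRNA #2. By adjusted p, 10 were higher and 3 lower in siSbp2l, where 53.4% of all genes passed. Arc was at a mean of 0.595 FPKM in siSbp2l, inside the range of the control group means, which were 2.78 in non-treated, 3.17 in mock, 5.81 in NC siRNA #1 and 0.294 in NC siRNA #2.

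Relatives of the members moved in their own ways. Spred2, a second Spred protein, was at 31.8 ± 0.610 FPKM (SD, n = 2) at Day0, had control group means of 5.21 to 9.52 and was at 15.3 ± 0.299 in siSbp2l and 14.5 ± 0.368 in siPdgfra. It fell from Day0 (-2.12 ± 0.07, adjusted p = 2.15e-10) and was called higher in siSbp2l (1.10 ± 0.08) and in siPdgfra (1.03 ± 0.08). Spred3 also fell from Day0 (-1.64 ± 0.12) and was called in neither knockdown. Dusp7, a cytoplasmic ERK phosphatase like Dusp6, went the other way and rose from Day0 (1.70 ± 0.14, adjusted p = 7.12e-07). Of 11 other dual-specificity phosphatases tested, 4 were called higher in siPdgfra and 1 lower (Dusp18), where 3.97% and 4.03% of all genes were, with a median of 0.67 beside 0.09 for all genes. The 4 were Dusp8 (2.11 ± 0.12), Dusp10 (1.58 ± 0.10) and Dusp16 (1.55 ± 0.09), phosphatases known to act on JNK and p38, and Dusp26 (1.08 ± 0.17). Dusp8 was at 44.8 ± 5.07 FPKM (SD, n = 2) in siPdgfra with control group means of 7.22 to 15.3, so these genes and Dusp5 were called in the same direction in the same libraries. In siSbp2l, Dusp16 (1.30 ± 0.09) and Dusp8 (1.25 ± 0.12) were called higher and Dusp15 (-2.02 ± 0.11) and Dusp18 (-1.56 ± 0.08) lower, where 3.12% and 4.08% of all genes were. Against Day0, 4 of these 11 phosphatases rose in the controls and Dusp1 fell, where 12% of all genes were called higher and 14.4% lower. Of the 4, Dusp14 (mean 0.459 FPKM), Dusp15 (0.535) and Dusp26 (0.715) were under 1 FPKM at Day0. They entered this fit only through the Day3 groups, so their calls carry no weight of their own.

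**Figure D4:**
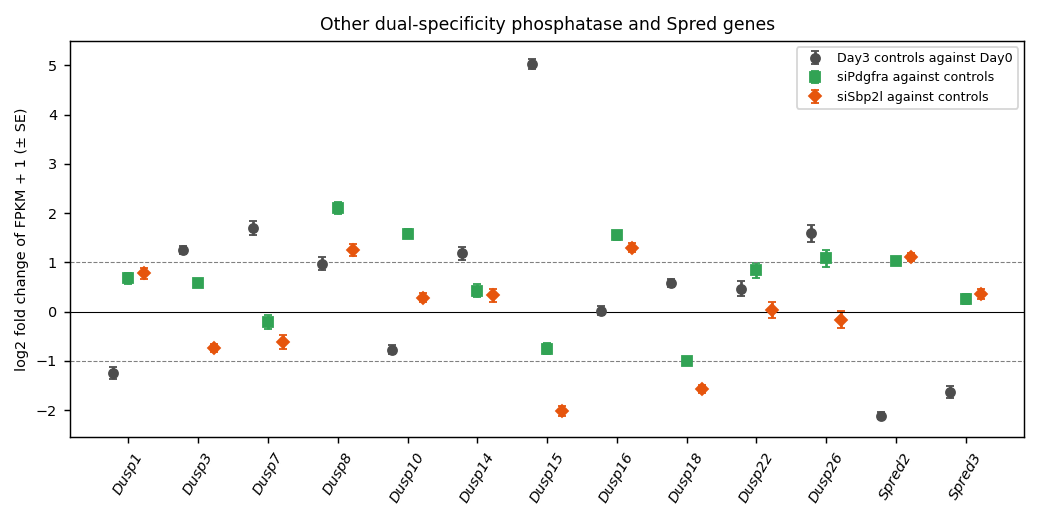
Log2 fold change of FPKM + 1 (± SE) of other dual-specificity phosphatase genes and of Spred2 and Spred3 in 3 comparisons, with dashed lines at 2-fold. Dusp8, Dusp10, Dusp16 and Dusp26 lie above 1 in siPdgfra, and Spred2 lies above 1 in both knockdowns and at -2.12 from Day0 to the controls.

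The counts in this paragraph stand beside these shares of all genes. From Day0 to the controls, 12% were called higher and 14.4% lower. In siPdgfra 3.97% were called higher, 4.03% lower, and 55.4% passed 0.05 by adjusted p. In siSbp2l these shares were 3.12%, 4.08% and 53.4%. Of 17 other inhibitors of receptor, Ras or ERK signalling, which include Spred2, Spred3 and Dusp7, 4 rose and 3 fell from Day0 to the controls. In siPdgfra 3 were called higher, led by the Ras GTPase-activating protein gene Rasal2 (2.59 ± 0.14), and Socs3 was called lower (-1.31 ± 0.15). In siSbp2l 5 were called higher and none lower, with 10 higher and 2 lower by adjusted p. Of 16 receptor tyrosine kinases, Pdgfra, Ntrk2 and Ntrk3 were called lower in siPdgfra, and Erbb4 (2.35 ± 0.17), Pdgfra (1.54 ± 0.08), Erbb3 (1.48 ± 0.07) and Igf1r (1.35 ± 0.09) were called higher in siSbp2l. Among their ligands, 2 of 9 rose from Day0 (Pdgfa and Igf2). Igf2, at a mean of 0.210 FPKM at Day0, entered that fit only through the Day3 groups, so its call carries no weight of its own. None of the 9 ligands was called in siPdgfra, with 6 higher and 3 lower by adjusted p, and Gas6 was called lower in siSbp2l (-2.03 ± 0.13). The 21 genes of the cascade itself, from adaptors to Erk, held 2 called higher from Day0 to the controls (Mapk3, which encodes ERK1, at 3.22 ± 0.13, and Ptpn11 at 1.27 ± 0.07) and none in siPdgfra, with 5 higher and 3 lower by adjusted p. In siSbp2l, Rps6ka3 and Ksr1 were called higher and Rps6ka1 lower. The size of the Rps6ka1 difference depended on the control. Its mean was 0.972 FPKM in siSbp2l and 1.23 in NC siRNA #2, but 4.72 in non-treated, 5.33 in mock and 7.93 in NC siRNA #1. Of 11 other ETS factor genes, Ets1 fell from Day0 (-2.48 ± 0.08) and Elf1 rose (1.76 ± 0.09). Ets1 was called higher in siSbp2l (1.85 ± 0.08), and none of the 11 was called in siPdgfra, with 3 higher and 3 lower by adjusted p.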

How the data were processed

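Total RNA of cultured OPCs was sequenced from stranded mRNA libraries, and the authors processed the reads with OmicSoft ArrayStudio on mm10 with refGene models. They deposited FPKM values per gene for 14 libraries, in a table whose name calls them counts. The deposited values are not whole, so no count model was run. A second table holds the authors' fold changes and p-values for siSbp2l, which were not used. Only its gene annotation was: names, positions, exon lengths and transcript numbers. Recovered depth and fragments rest on those exon lengths. Whether counting used strand is not given in the sources used here. The methods name 1 sequencer for the differentiation series and another for the knockdown series. All 14 libraries used here, Day0 and non-treated included, were deposited as the knockdown series, though no sequencer is named library by library.

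The members, the pathway lists and the tests were chosen with earlier results of these data known. Genes with at least 1 FPKM in at least 2 libraries were fitted with limma 3.58.1 in R 4.3.3 (trend and robust on) on log2(FPKM + 1) without further scaling: 11874 genes over 14 libraries for comparisons with Day0 and 11650 genes over the 12 Day3 libraries for the rest. A fold change on this scale understates that of a low gene. All 10 members are named, and of each pathway list up to 4 called genes with the largest change per comparison. Dusp18 in siPdgfra and Dusp14, Epha4, Spred3 and Vgf against Day0 were named beyond this after their values were seen, as were single OPC and neuron markers. Of the genes closest in profile to Etv5, 1 is not reported here. Methods describe the 2 libraries of a group as independent replicates, and p-values measure the spread between these libraries. Depth was recovered from low FPKM values, of which 88.8% to 92.5% per library were whole fragments within 0.1 for genes with a single transcript. Promoter letters are RefSeq's, build GRCm38.p6. The fit was tested on simulated data. Alternatives were pseudocounts, filters, scalings, single controls, a replicate term and leaving out each library. Hras, Peak1 and Myrf were read under older symbols.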

Additional observations from a re-analysis of the deposited data

How the results depend on the processing

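With only 2 libraries per group, the spread was pooled over all groups of a fit. A call also needed a 2-fold change, which several members with an adjusted p below 0.05 missed. Adding 5 in place of 1 to FPKM left no member called in siPdgfra, in siSbp2l or between them (0 in each, against 1, 2 and 1), and a filter of 5 FPKM, which removes Dusp5, left 0 in siPdgfra and 0 between the knockdowns. Adding 0.1 gave 2 in siPdgfra (Etv4 added) and 2 for the NC siRNAs against non-treated and mock (Etv5 and Spry4, against 0). Non-treated or mock as the only control gave 2 in siPdgfra, and mock gave 1 in siSbp2l. Median-ratio and upper-quartile scaling each gave 1 in siSbp2l and 1 for the NC siRNAs. Leaving out 1 library at a time gave 1 to 2 in siSbp2l (1 without non-treated replicate 1, where Etv1 fell to 0.99) and 0 to 1 for the NC siRNAs (1 without mock replicate 1 or NC siRNA #2 replicate 2, Etv5). Leaving out the non-treated group, chosen after seeing the data, gave 1 there. Of the values for single members, 1118 kept their direction and side of the threshold, 12 gained a call, 12 lost one and 25 changed sign, 21 of them with an adjusted p of 0.05 or more both times. In siPdgfra, Etv5 (0.44), Dusp6 (0.044) and Spred1 (0.24) changed sign against NC siRNA #1, Spred1 (0.049) against NC siRNA #2, and Spry2 against non-treated (-0.15), against mock (-0.049) and with upper-quartile scaling (-0.015). In siSbp2l, Etv5 changed sign against non-treated (-0.047) and mock (-0.28), Dusp5 against mock (-0.044), Dusp6 against NC siRNA #1 (0.28), and Spry4 against non-treated (-0.18), against mock (-0.33), with median-ratio (-0.045) and upper-quartile scaling (-0.024) and without siSbp2l replicate 2 (-0.14, the lowest of a range up to 0.25). Leaving out 1 library at a time, Dusp5 ran from -0.11 (without non-treated replicate 1) to 0.70 for non-treated against Day0. For the NC siRNAs against non-treated and mock, Dusp5 ran from -0.40 to 0.0034 (without non-treated replicate 1) and Etv1 from -0.22 to 0.063 (without non-treated replicate 2). Between the NC siRNAs, Spry4 came to 0.0069 with median-ratio scaling and to 0.040 and 0.098 without replicate 1 of NC siRNA #1 and of NC siRNA #2, Spry1 to 0.065 without replicate 1 of NC siRNA #2, and Spry2 to -0.0057 without replicate 1 of NC siRNA #1 and -0.070 without replicate 2 of NC siRNA #2, in a range up to 0.20. The calls against Day0 were 9 of 10 with the replicate number as a block. Same-numbered libraries did not deviate together in most pairs of groups: the correlation was -0.38 to 0.47 over 21 pairs, above 0.1 in 4. The highest values were 0.47 for Day0 with non-treated, a comparison made here, and 0.39 for Day0 with siPdgfra. The numbers were not read as pairs. With the block, 8 members were called for non-treated against Day0, as without it, and the block moved no count of members called by over 1.5 times. The cause of these changes was not tested.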
